A study of Rattus norvegicus with 12 samples.

Results

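The NMDA receptor subunit genes Grin1, Grin2a, Grin2b, Grin2c, Grin2d, Grin3a and Grin3b were followed in the prefrontal cortex of 15-day-old female Sprague-Dawley rats. They were chosen by the gene name that the scanner files give each non-control probe. This gave 7 genes with 9 probes, out of 30367 non-control probes on the array. In Grin1 and Grin3a 2 probes each were present, and 1 in every other gene. Of the 9 probes, 8 passed the filter on low signal and were tested among 21533 probes. The Grin3b probe did not pass.

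Total RNA was hybridised to 6 Agilent 2-colour arrays, each read in Cy3 and Cy5, with 3 groups of 4 samples. In the group given betamethasone with ketamine, dams were injected 2 times with betamethasone at 0.4 mg/kg on gestational day 15, and their female pups received ketamine (35 mg/kg) on postnatal day 14. In the betamethasone group the dams received the same injections and the pups received saline. In the control group dams and pups both received saline. All animals were 15 days old by their titles and descriptions. A separate label field states a different age. The protocol describes ketamine or saline as given to rats that had infantile spasms, but the sample labels do not say which animals had them. The labels name neither dams nor litters, and litters were culled to 4 females, so samples of a group may share a litter. P-values then measure the spread between these samples.

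The 2 dyes of an array carried 2 animals from 1 group. The 2 control arrays lay on 1 slide and the 4 other arrays on a second slide, so slide and control status cannot be told apart. Between 71.4% and 81.5% of 42877 spots per sample were well above background, and no spot was saturated. Precision was limited by having 2 arrays in each group. For ketamine samples 1 and 2, which share an array, 5.73% of the spots lay in areas rich in spots that departed from the other arrays, with a median departure of −0.78 on the log2 scale. These 2 samples stood apart on principal component 1 (57.77 and 55.67, against −21.52 to −7.27 in the other 10 samples). Where leaving out this array turned the sign of a result or moved it by over 1.5 times, the value without it is given for the subunits and for the genes named from the lists around the receptor. Of 10 listed neuronal markers 9 were tested, among them the cortical projection neuron genes Tbr1, Neurod6 and Slc17a7, and all 9 were well above background in all 12 samples. So were 6 of 6 tested markers of the striatum and 5 of 6 of the cerebellum, so this measure does not set the tissues apart.

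NMDA receptors are glutamate-gated cation channels made of obligatory GluN1 subunits, encoded by Grin1, with GluN2 or GluN3 subunits. GluN1 and GluN3 bind glycine or D-serine, and GluN2 binds glutamate. Magnesium blocks the pore at rest, and ketamine is a blocker of the open pore. In the rodent forebrain Grin2b is high from before birth, Grin2a rises after birth, and Grin3a is known for a peak in early postnatal life.

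The probes are 60-base oligonucleotides of the mRNA sense, and their rn4 coordinates were those in the scanner files. Those of the obligatory subunit and of Grin2b and Grin2d are shown 5′ to 3′ in lower case, because the obligatory subunit and 2 glutamate-binding subunits of the early forebrain were read through them. The Grin1 probe shown lies on the minus strand at chr3:3460217-3460350, a span of 134 bases, as for an oligonucleotide that joins parts of a transcript separated by an intron. The other 2 lie at chr4:172722609-172722668 (minus strand, Grin2b) and chr1:96309508-96309567 (minus strand, Grin2d).
Grin1 A_43_P11774: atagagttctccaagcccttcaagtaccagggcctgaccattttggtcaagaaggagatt
Grin2b A_44_P308696: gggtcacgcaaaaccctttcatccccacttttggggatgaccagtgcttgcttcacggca
Grin2d A_64_P118192: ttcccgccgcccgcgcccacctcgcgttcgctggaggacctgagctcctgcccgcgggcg
The share of G and C in these 3 sequences was 46.7% for Grin1, 55% for Grin2b and 78.3% for Grin2d. Since the response of a probe depends on its sequence, changes are given within each probe. The difference of Grin2a and Grin2b and the summed signals of marker lists combine probes, and these are compared between groups, not read as levels.

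No NMDA receptor probe passed the threshold in any comparison (limma, Benjamini-Hochberg adjusted p under 0.05 over all 21533 probes). In betamethasone minus control 0 of 8 probes passed, where 0.214% of all probes did. In ketamine minus saline after betamethasone 0 of 8 passed, where no probe of the array did by limma (0%, with 3.16% at an unadjusted p under 0.05). Ketamine and saline samples did not overlap in 4% of all probes and in 0 of these 8. In betamethasone with ketamine minus control 0 of 8 passed, where 0.0789% of all probes did. The subunits with the smallest p-values were Grin2a, at lower values in both betamethasone-exposed groups than in control, and Grin2c, at higher values. The median change of the 8 probes was 0.17, 0.11 and 0.01 on the log2 scale in the 3 comparisons, in the order given, against medians of 0.03, 0.05 and 0.07 over all probes.

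**Figure D1:**
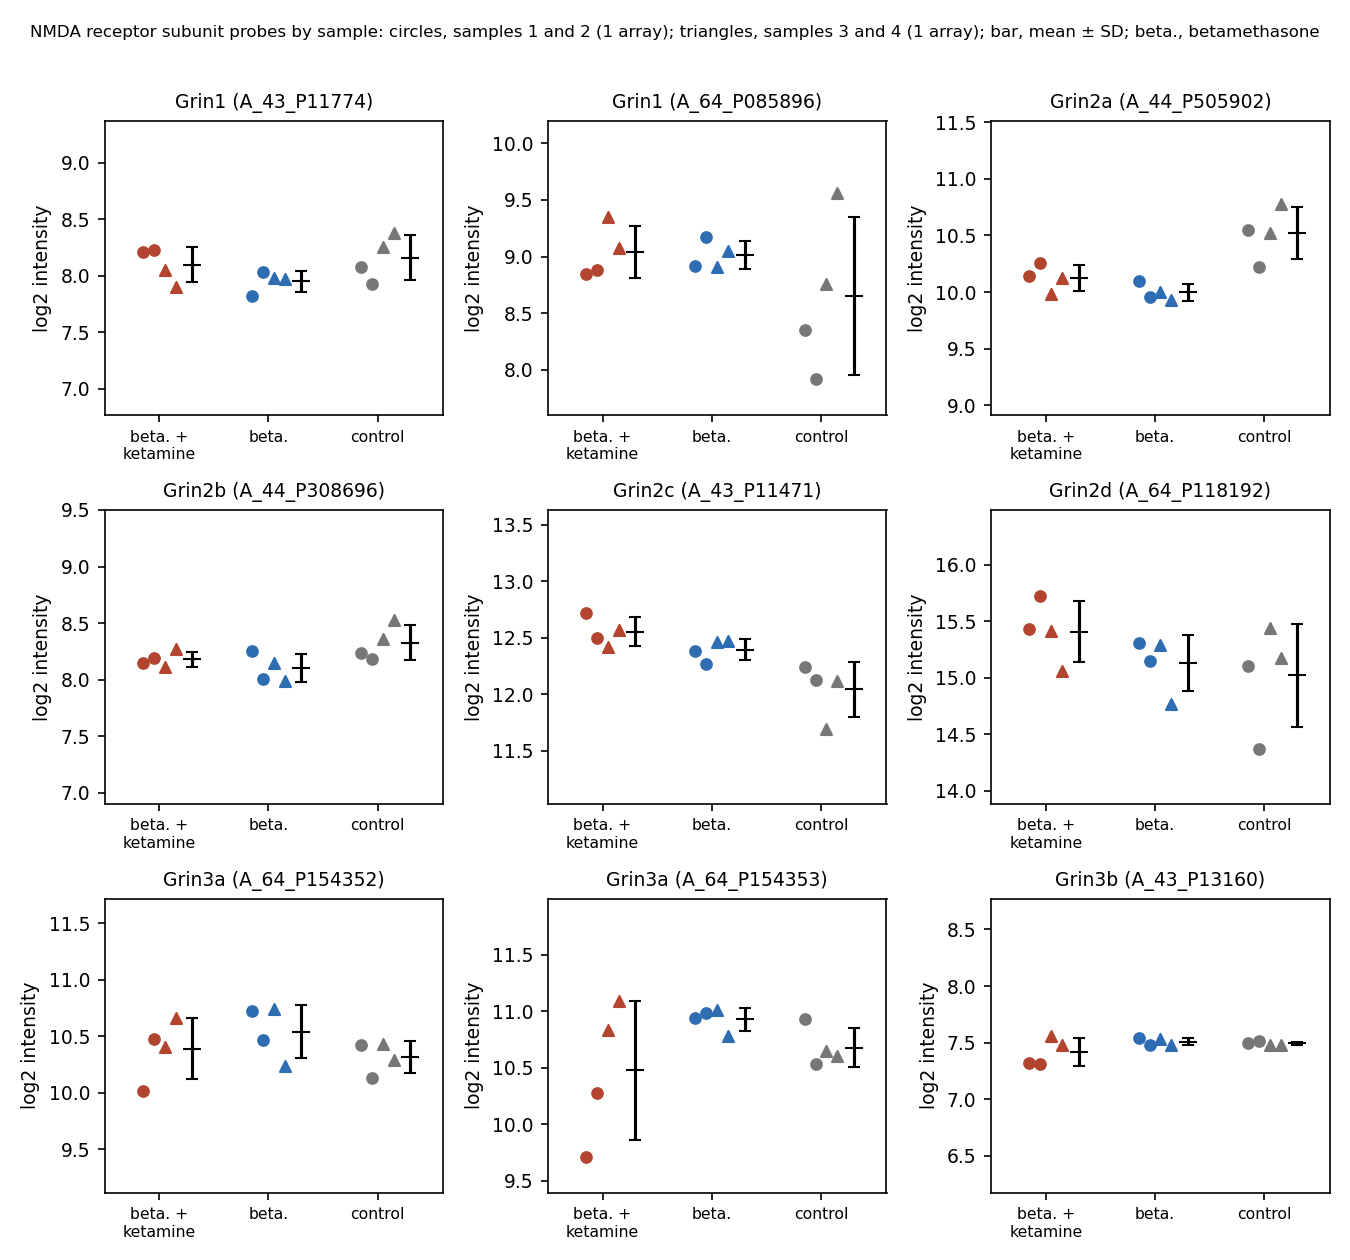
Normalized log2 intensity (y axis, 1 panel per probe, each spanning the same range) in each sample of the betamethasone with ketamine, betamethasone and control groups. Circles are samples 1 and 2, triangles samples 3 and 4, which share an array each, and bars give the mean ± SD (n = 4). Grin2a lies lower in the betamethasone samples (9.93 to 10.10) than in the control samples (10.22 to 10.78), and Grin2c lies higher in both exposed groups than in control.

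Grin1 encodes the GluN1 subunit that every NMDA receptor contains. Its probe A_43_P11774 was dim, with a mean foreground of 93.4 to 218 scanner units, 1.46 to 13.7 times the local background. In Cy3 this background was 13.5 and 15 in control samples, 60 and 64 in betamethasone and 58 in each sample with ketamine. In Cy5 this probe had a background of 27.5 to 39 over all groups. Its log2 intensity was 8.21, 8.23, 8.05 and 7.90 in the samples given betamethasone with ketamine, 7.82, 8.03, 7.98 and 7.97 in the betamethasone samples, and 8.08, 7.93, 8.25 and 8.38 in the control samples. The 3 groups overlapped. The change was −0.21 in betamethasone minus control (SE 0.14, limma adjusted p = 0.617), 0.15 in ketamine minus saline after betamethasone (SE 0.14, adjusted p = 0.915) and −0.06 in betamethasone with ketamine minus control (SE 0.14, adjusted p = 0.858). For ketamine, the 95% interval of the change ran from 0.89-fold to 1.38-fold.

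The second Grin1 probe, A_64_P085896 (rn4 chr3:3454949-3455008, minus strand, nearer the 3′ end of the transcript), varied more. It read 8.85, 8.88, 9.35 and 9.08 with ketamine, 8.92, 9.17, 8.91 and 9.05 in betamethasone, and 8.35, 7.92, 8.76 and 9.56 in control. The spread lay in the control group (9.04 ± 0.23 with ketamine, 9.01 ± 0.12 in betamethasone and 8.65 ± 0.70 in control, SD, n = 4 each), and control sample 4 lay above all 8 exposed samples while control samples 1, 2 and 3 lay below all of them. Its within-group SD of 0.43 was larger than that of 94.2% of the probes tested. The change in betamethasone minus control was 0.37 (SE 0.37, adjusted p = 0.769), opposite in sign to that of the first probe, and became −0.14 without the array of control samples 1 and 2. It was 0.03 in ketamine minus saline (SE 0.37, adjusted p = 0.996) and 0.39 with ketamine minus control (SE 0.37, adjusted p = 0.630), the second being −0.12 without that array. The 2 Grin1 probes list partly different transcript variants in the scanner files, and their values correlated at r = 0.281 over the 12 samples, which share arrays in pairs.

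Grin2a encodes GluN2A, the glutamate-binding subunit that joins synaptic receptors as the forebrain matures. Its probe read 10.14, 10.26, 9.98 and 10.12 in the samples given betamethasone with ketamine, 10.10, 9.96, 10 and 9.93 in the betamethasone samples, and 10.55, 10.22, 10.52 and 10.78 in the control samples. All 4 betamethasone samples lay below all 4 control samples, while ketamine sample 2 lay within the control range. In betamethasone minus control the log2 change was −0.52 (SE 0.17, 95% interval −0.89 to −0.15), or 0.697-fold, with a limma p of 0.0104 before and 0.269 after adjustment over all probes. Of all probes 3.88% had a smaller p in that comparison, and 7.18% were lower with groups that did not overlap (17.5% in either direction). The difference therefore did not pass.

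In betamethasone with ketamine minus control, Grin2a was at −0.39 (SE 0.17, 95% interval −0.76 to −0.02), with a limma p of 0.0400 before and 0.340 after adjustment. In that comparison 13.8% of all probes had an unadjusted p under 0.05, as did 2 of the 8 subunit probes, and in betamethasone minus control 11.4% did, as did 1 of the 8. Both comparisons use the same control samples. In ketamine minus saline after betamethasone, which lies within 1 slide, Grin2a was at 0.13 (SE 0.17, adjusted p = 0.924), with a 95% interval from 0.845-fold to 1.41-fold. The array means, averaged over 2 animals each, were 10.20 and 10.05 with ketamine, 10.03 and 9.97 in betamethasone, and 10.39 and 10.65 in control. The change against control was below 0 in all 32 alternatives in both comparisons, from −0.65 to −0.26 for betamethasone and from −0.54 to −0.20 with ketamine. It passed in 1 of them, for betamethasone, when the 2 animals of an array were taken as independent (adjusted p = 0.0296, against 0.0296 to 1 over the 32). In that setting many more of all probes passed than the 0.214% with the array block, as counted in the closing section. The shared sign is not independent support. Alternatives that changed only the model terms or the set of probes kept the sample values, and so the sign. With all betamethasone samples below control, leaving out an array could not turn it in that comparison. Every alternative kept the control arrays on their own slide.

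Grin2b encodes GluN2B, the glutamate-binding subunit that prevails in the immature forebrain. Its probe was dim, at 120 to 300 scanner units. This probe had a Cy3 background of 18 in control samples, 54.5 and 59 in betamethasone, and 56 and 60 with ketamine. It read 8.15, 8.19, 8.11 and 8.27 with ketamine, 8.25, 8.01, 8.15 and 7.99 in betamethasone, and 8.24, 8.18, 8.36 and 8.53 in control. The betamethasone and control samples overlapped, as did the ketamine samples with both. The log2 change was −0.23 in betamethasone minus control (SE 0.14, limma adjusted p = 0.562) and −0.15 in betamethasone with ketamine minus control (SE 0.14, adjusted p = 0.630). After ketamine it was 0.08 (SE 0.14, adjusted p = 0.939), with a 95% interval from 0.86-fold to 1.3-fold, the narrowest of the 8 probes in that comparison.

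The balance of Grin2a and Grin2b is known to shift toward Grin2a as the cortex matures. The log2 value of Grin2a minus that of Grin2b was 1.99, 2.07, 1.87 and 1.85 with ketamine, 1.85, 1.95, 1.86 and 1.93 in betamethasone, and 2.31, 2.04, 2.16 and 2.25 in control. As the probes differ in sequence, only its change between groups can be read. It was lower in all 4 betamethasone samples than in control (1.90 ± 0.05 in betamethasone and 2.19 ± 0.12 in control, SD, n = 4 each) and was 1.94 ± 0.11 with ketamine. This difference depended on the scaling of the arrays. Betamethasone minus control was −0.29 here, but −0.05 with the scanner's processed signals, 0.02 in the re-centred deposited value table, and 0.17 both under 75th percentile scaling and under loess with array medians. It is given as a description, and no change in the balance was established.

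Grin2c encodes GluN2C, known best from cerebellar granule cells and, in the mouse, also from forebrain astrocytes. Its probe (rn4 chr10:105323397-105323456, minus strand) read 12.72, 12.50, 12.42 and 12.57 with ketamine, 12.38, 12.27, 12.46 and 12.47 in betamethasone, and 12.24, 12.13, 11.69 and 12.12 in control. Every exposed sample lay above every control sample. In betamethasone with ketamine minus control the change was 0.51 (SE 0.18, 95% interval 0.11 to 0.90), or 1.42-fold, with a limma p of 0.0165 before and 0.300 after adjustment. Among all probes 11.9% were higher in that comparison with groups that did not overlap (15.6% in either direction). In betamethasone minus control it was at 0.35 (SE 0.18, adjusted p = 0.481), where 10.3% of all probes were higher without overlap.

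After ketamine Grin2c was at 0.15 (SE 0.18, limma adjusted p = 0.918). The changes against control were above 0 in all 32 alternatives, from 0.21 to 0.70 for betamethasone and from 0.32 to 0.66 with ketamine. With ketamine minus control it passed in 1 of them, with the animals of an array taken as independent (adjusted p = 0.0443, against 0.0443 to 1 over the 32). There too, many more of all probes passed than the 0.0789% with the array block, as counted in the closing section. For Grin2c too, many alternatives kept the sample values or only left out arrays, so they could not turn the sign. All of them kept the control arrays on their own slide. Of 8 astrocyte markers, 6 were above 0 in betamethasone with ketamine minus control, with a median of 0.21, against 64% of all probes above 0, and none passed. They ran from −0.12 for Slc1a3 (SE 0.15, adjusted p = 0.726) to 0.70 for Gfap (SE 0.25, adjusted p = 0.302). For betamethasone minus control 4 were above 0 and 4 below (median 0.10), from −0.61 for Aldh1l1 (SE 0.25, adjusted p = 0.396) to 0.53 for S100b (SE 0.16, adjusted p = 0.242). The summed astrocyte signal ran from 17.36 to 17.63 on the log2 scale with ketamine, 17.39 to 17.48 in betamethasone and 17.08 to 17.44 in control. Of 6 cerebellar markers 4 were above 0 with ketamine minus control (median 0.19). Both counts lie near the share of all probes above 0. The part of either cell population in the Grin2c values was not tested, and in tissue RNA a difference in the number of cells of a type and a difference in RNA per cell cannot be told apart.

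Grin2d encodes GluN2D, which is expressed early in development and, in the cortex, mainly in interneurons. Its probe gave 24400 to 57300 scanner units. It read 15.43, 15.72, 15.41 and 15.06 with ketamine, 15.31, 15.15, 15.29 and 14.77 in betamethasone, and 15.10, 14.37, 15.44 and 15.17 in control. The groups overlapped, and control sample 2 was the lowest. The change was 0.11 in betamethasone minus control (SE 0.28, limma adjusted p = 0.929), 0.28 in ketamine minus saline (SE 0.28, adjusted p = 0.915) and 0.39 in betamethasone with ketamine minus control (SE 0.28, adjusted p = 0.531). Without the array of control samples 1 and 2 the first of these was −0.18. GABA interneuron markers had medians of −0.03, −0.10 and 0.10 in the same comparisons over 9 genes.

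Grin3a encodes GluN3A, a glycine-binding subunit that lowers calcium permeability and magnesium block. Probe A_64_P154352 (rn4 chr5:66406453-66406512, minus strand) read 10.02, 10.48, 10.41 and 10.66 with ketamine, 10.72, 10.47, 10.74 and 10.24 in betamethasone, and 10.42, 10.13, 10.43 and 10.29 in control. The second probe, A_64_P154353 (chr5:66406544-66406603, minus strand), read 9.71, 10.28, 10.83 and 11.09 with ketamine, 10.94, 10.98, 11.01 and 10.78 in betamethasone, and 10.93, 10.53, 10.65 and 10.60 in control. The groups overlapped on both probes, whose values correlated at r = 0.726 over the 12 samples. On the second probe ketamine samples 1 and 2 were the lowest of the 12.

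In ketamine minus saline after betamethasone the first Grin3a probe was at −0.15 (SE 0.25, limma adjusted p = 0.938) and the second at −0.45 (SE 0.31, adjusted p = 0.910). On the array of ketamine samples 1 and 2 the second probe's spot lay 0.90 below the median of the other arrays on the log2 scale, and the local background of sample 1 there was 261 scanner units, against 15 to 114 in the other 11 samples. Without that array the second probe was at 0.04. With it as the only ketamine array it was at −0.93 and passed (adjusted p = 0.0292, against 0.0292 to 1 over the alternatives). Many probes over the whole array passed in that setting, as counted in the closing section, where 0 did with all samples. The call is therefore not read as a result for Grin3a. In betamethasone minus control the 2 probes were at 0.23 (SE 0.25, adjusted p = 0.791) and 0.25 (SE 0.31, adjusted p = 0.829). With ketamine minus control they were at 0.07 (SE 0.25, adjusted p = 0.908) and −0.20 (SE 0.31, adjusted p = 0.778).

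Grin3b encodes GluN3B, known chiefly from motor neurons of the spinal cord and brainstem. Its probe (rn4 chr7:11244019-11244078, minus strand) was well above background in 2 of 4 samples with ketamine, 2 of 4 in betamethasone and 1 of 4 in control. Its log2 intensity was 7.32, 7.31, 7.56 and 7.48 with ketamine, 7.54, 7.48, 7.53 and 7.48 in betamethasone, and 7.5, 7.51, 7.48 and 7.48 in control. Its spot lay in a departing area on the array with ketamine samples 1 and 2, which were the lowest. No fold change is given for this gene.

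**Figure D2:**
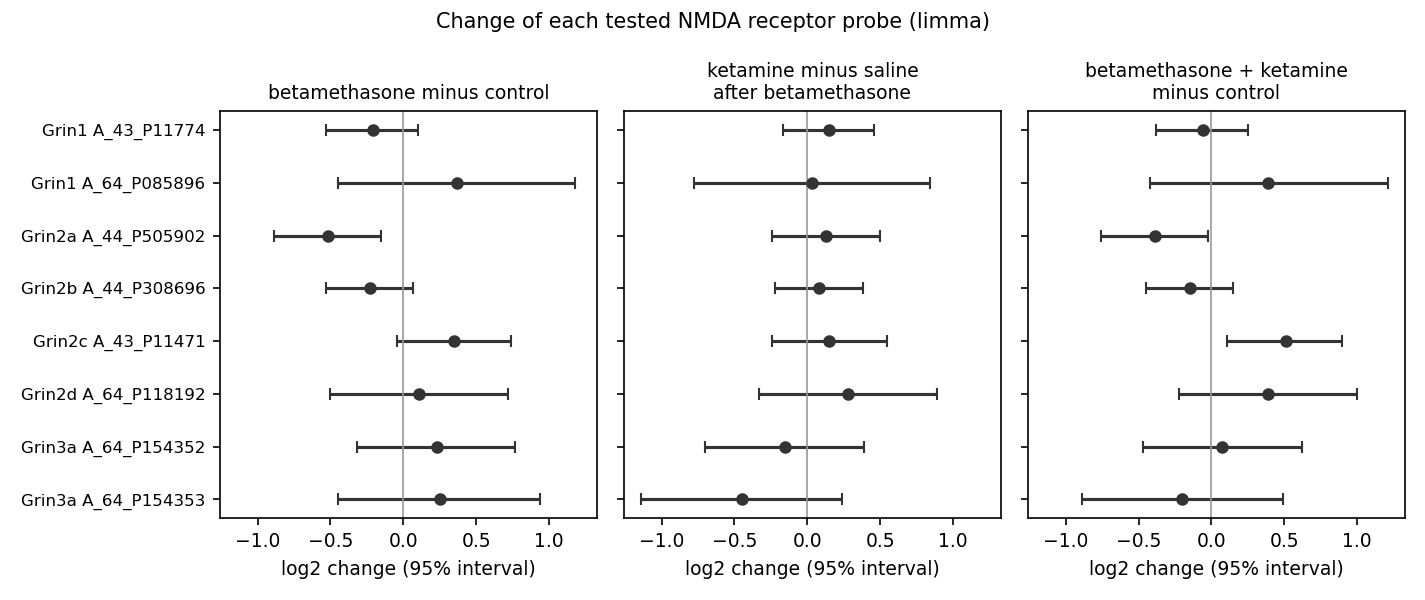
Log2 change (x axis) of the 8 tested probes with its 95% interval in the 3 comparisons, with betamethasone minus control at the left and ketamine minus saline in the middle. The interval of Grin2a lies below 0 in both comparisons with control and that of Grin2c above 0 with ketamine, before adjustment over all probes, and all 8 intervals include 0 for ketamine minus saline.

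For the comparison of ketamine with saline, changes of the subunits between −0.45 and 0.28 were estimated, with SEs of 0.14 to 0.37 against a median SE of 0.145 over all probes. The 95% intervals of the 8 probes reached from 0.453-fold to 1.85-fold at their widest. With only ketamine samples 3 and 4 in the ketamine group, the 8 changes lay between −0.01 and 0.20 against saline. Against control they were then −0.19 and 0.57 for the Grin1 probes, −0.47 for Grin2a, −0.14 for Grin2b, 0.45 for Grin2c, 0.22 for Grin2d, and 0.21 and 0.28 for the Grin3a probes, and none passed. Of the 8 intervals with all samples, that of Grin3a A_64_P154353 reached below 0.5-fold, and none reached 2-fold. These intervals do not show that the subunits were unaffected, and with 2 arrays per group changes within each probe's interval are not excluded.

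**Figure D3:**
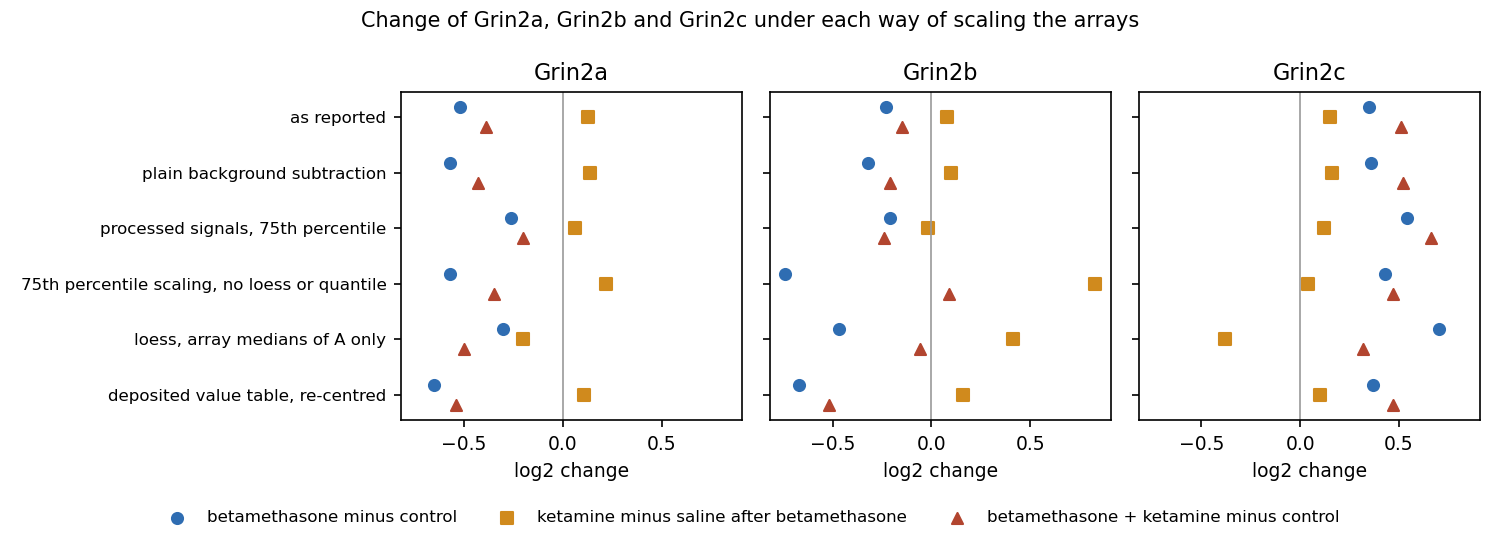
Log2 change (x axis) of Grin2a, Grin2b and Grin2c under 6 ways of scaling the arrays (y axis), with 1 marker per comparison. Grin2a stays below 0 and Grin2c above 0 in both comparisons with control, while the values for ketamine minus saline change sign with the scaling for each of the 3 genes.

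The subunits correlated with each other to different degrees. Over the 12 samples Grin2a and Grin2b correlated at r = 0.872, and at r = 0.785 after the group means were removed. Grin2a and Grin2c correlated at r = −0.592, and at 0.0518 after group means were removed, so the negative value came with the group means. These correlations describe 12 samples that share arrays in pairs. Over 11222 genes with a symbol and a probe well above background in all samples, the values most like Grin2a were those of Yap1 (r = 0.946), Insl3 (0.929) and Marchf9 (0.923). After group means were removed these were 0.817, 0.731 and 0.688. Those most like Grin2b were Exoc6b (0.928), Or6al1 (0.910) and Gcnt2 (0.877), and those most like Grin2c were Bcl2l12 (0.938), Ier2 (0.932) and Xpo6 (0.916). After group means were removed the values were 0.913, 0.870 and 0.811 for Grin2b and 0.866, 0.777 and 0.830 for Grin2c. For Grin2d they were Slc38a7 (0.930), Rhov (0.917) and Hnrnph2 (0.915), for Grin3a A_64_P154353 mrpl11 (0.953), Rnf26 (0.945) and Eif2b5 (0.932), and for Grin1 A_64_P085896 Cdh13 (0.938), Gpx3 (0.922) and Fads3 (0.922). For these 3 probes the values within groups lay between 0.893 and 0.948. All of these genes were picked as the highest over 11222, and no reference for such a maximum was computed. Removing group means leaves differences between arrays in place. Grin3a A_64_P154353 read lowest on the array of ketamine samples 1 and 2 (9.71 and 10.28). It also correlated at 0.811 with Grin3b, whose spot lay in a departing area there. The part of that array in these correlations was not tested.

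Genes that supply the receptor's co-agonists, anchor it, act downstream of it or carry it to the synapse were taken from 4 lists, with the brightest kept probe of each gene. No gene of the 4 lists passed in any comparison. In betamethasone minus control 7 of 9 co-agonist genes were above 0 (median 0.19), 5 of 13 scaffold genes (median −0.03), 11 of 21 signalling genes (median 0.02) and 4 of 8 trafficking genes (median 0.01). Over all probes 56.3% were above 0, with a median of 0.03. In betamethasone with ketamine minus control the numbers above 0 were 7 of 9 (median 0.29), 9 of 13 (0.11), 15 of 21 (0.12) and 6 of 8 (0.17), where 64% of all probes were. In ketamine minus saline they were 5 of 9 (0.09), 10 of 13 (0.19), 17 of 21 (0.10) and 5 of 8 (0.07), where 63.2% of all probes were.

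Co-agonist genes included Psat1 and Phgdh, enzymes of serine synthesis. Psat1 read 13.20, 12.82, 12.49 and 12.47 with ketamine, 12.54, 12.53, 12.47 and 12.36 in betamethasone, and 11.77, 12.34, 12.13 and 11.90 in control. Every exposed sample lay above every control sample. Of all probes, 11.9% were higher without overlap with ketamine minus control and 10.3% in betamethasone minus control. The change of Psat1 was 0.71 in betamethasone with ketamine minus control (SE 0.25, limma adjusted p = 0.300) and 0.44 in betamethasone minus control (SE 0.25, adjusted p = 0.534). With ketamine samples 3 and 4 alone the first of these was 0.44 (SE 0.18, adjusted p = 0.382). Phgdh was at 0.44 with ketamine minus control (SE 0.15, adjusted p = 0.284) and at 0.24 with samples 3 and 4 alone, and Slc7a10, a transporter of D-serine and glycine, at 0.32 in betamethasone minus control (SE 0.13, adjusted p = 0.396).

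Among scaffolds, Dlg3 (SAP102, which binds NMDA receptors early in development) was at 0.53 in betamethasone minus control (SE 0.14, limma adjusted p = 0.185) and 0.48 with ketamine minus control (SE 0.14, adjusted p = 0.232). It averaged 10.91 ± 0.04 with ketamine, 10.96 ± 0.04 in betamethasone and 10.43 ± 0.19 in control (SD, n = 4 each), with no overlap between exposed and control samples. Of all probes, 10.3% were higher without overlap in betamethasone minus control and 11.9% with ketamine minus control. Shank3, a scaffold of the postsynaptic density, was at −0.34 in betamethasone minus control (SE 0.14, adjusted p = 0.400). Dlg2 (PSD-93) was at 0.83 with ketamine minus control (SE 0.77, adjusted p = 0.629), and control sample 1 alone read 8.54 against 10.44 to 11.65 in the other 11. Akap5, an anchor of kinases and calcineurin, was at 0.52 in ketamine minus saline (SE 0.26, adjusted p = 0.910), with 12.89 and 12.41 in ketamine samples 1 and 2 and 11.72 and 11.74 in samples 3 and 4. Without the array of samples 1 and 2 it was at 0.06 (SE 0.14, adjusted p = 1).

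Of the signalling genes, Tiam1, a Rac activator bound to the receptor, had the smallest p in betamethasone minus control and in ketamine minus saline. It read 11.01, 11.32, 10.52 and 10.77 with ketamine, 10.46, 10.68, 10.05 and 10.41 in betamethasone, and 10.93, 11.17, 11.13 and 11.21 in control. All 4 betamethasone samples lay below control, where 7.18% of all probes were lower without overlap, and the ketamine samples overlapped both. Its change was −0.71 in betamethasone minus control (SE 0.16, limma adjusted p = 0.132) and 0.51 in ketamine minus saline (SE 0.16, adjusted p = 0.910), which share the betamethasone samples. With ketamine samples 3 and 4 alone the second was 0.25 (SE 0.13, adjusted p = 1). The calcineurin subunit gene Ppp3cb was at 0.52 in ketamine minus saline (SE 0.44, adjusted p = 0.910), and at 0.17 with ketamine samples 3 and 4 alone. Camk2b, of the kinase activated by receptor calcium, was at 0.49 with ketamine minus control (SE 0.30, adjusted p = 0.478), and Ppp3ca at 0.38 (SE 0.38, adjusted p = 0.653). After Tiam1 in betamethasone minus control came a tie at 0.22 of Camk2b (SE 0.30, adjusted p = 0.842) and Csnk2b (SE 0.15, adjusted p = 0.633).

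Of the trafficking genes, Numb, an endocytic adaptor, was at −0.61 in betamethasone minus control (SE 0.24, limma adjusted p = 0.370) and −0.64 with ketamine minus control (SE 0.24, adjusted p = 0.314). Next in betamethasone minus control came a tie of Lin7b at 0.47 (SE 0.18, adjusted p = 0.364) and Lin7a at −0.47 (SE 0.56, adjusted p = 0.813). Lin7b was also higher with ketamine minus control, at 0.56 (SE 0.18, adjusted p = 0.276). Lin7a, of the complex that carries GluN2B along dendrites, was at −1.61 with ketamine minus control (SE 0.56, adjusted p = 0.297) and −1.15 in ketamine minus saline (SE 0.56, adjusted p = 0.910). It read 7.44 and 7.41 in ketamine samples 1 and 2 and 10.04 and 9.79 in samples 3 and 4, and its spot lay in a departing area on the array with samples 1 and 2. Without that array it was at −0.37 with ketamine minus control (SE 0.15, adjusted p = 0.356) and at 0.09 in ketamine minus saline (SE 0.15, adjusted p = 1). Cask, a scaffold of the same complex, was at 0.26 in ketamine minus saline (SE 0.22, adjusted p = 0.910), and at 0.13 without it.

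**Figure D4:**
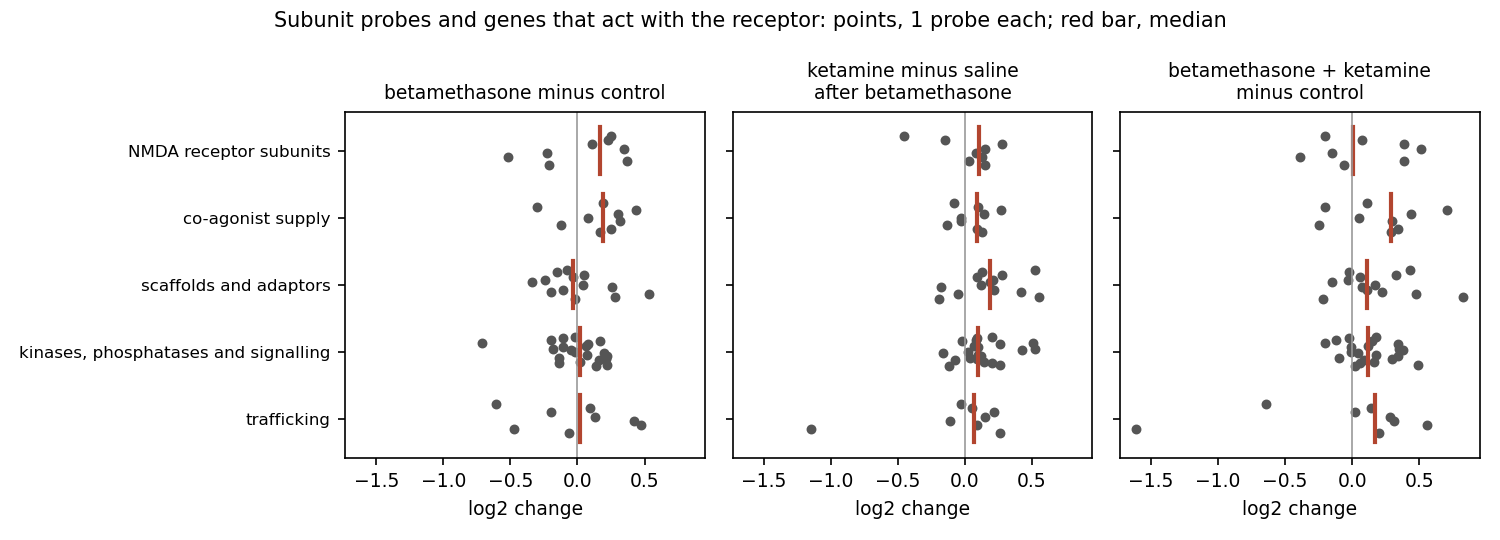
Log2 change (x axis) of the 8 subunit probes and of the genes in 4 lists around the receptor (y axis) in the 3 comparisons, 1 point per probe, with the median as a bar. List medians lie between −0.03 and 0.29, and single genes beyond 0.5 in either direction include Tiam1, Dlg3, Psat1 and Lin7a, none of which passed.

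Markers of oligodendrocytes, microglia and neurons were also read. Oligodendrocyte markers were below 0 for 8 of 8 genes in betamethasone minus control (median −0.58) and for 7 of 8 with ketamine minus control (median −0.48), and none passed. Over all probes 43.7% and 36% were below 0 in these comparisons. Their summed signal ran from 15.01 to 16.12 on the log2 scale with ketamine, 14.45 to 15.69 in betamethasone and 15.33 to 16.41 in control. Microglia markers were above 0 for 7 of 8 genes with ketamine minus control (median 0.31) and for 6 of 8 in betamethasone minus control (median 0.15), with 64% and 56.3% of all probes above 0, and none passed. Their summed signal ran from 14.90 to 14.98 with ketamine, 14.78 to 14.90 in betamethasone and 14.61 to 14.83 in control. Neuronal markers had medians of 0.08 and 0.04 in these comparisons, with summed signals of 17.18 to 17.56 with ketamine, 17.23 to 17.31 in betamethasone and 17.17 to 17.76 in control. The part of such differences in the Grin2a and Grin2c values was not tested.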

How the data were processed

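Per the file headers, spot and local background signals are intensity values (scanner units) from Agilent Feature Extraction 11.5.1.1 (control slide) or 11.0.1.1 (other slide); the submitters' processing notes name version 10.7.3.1. The deposited value table held a ratio per spot. Each column matched the background-subtracted median signal of a spot over the median of that column. Its columns of control samples 1 and 2 matched the scanner data of control samples 3 and 4, and the reverse, and the names of the control scanner files carry the same exchange of numbers. The assignment of GEO was kept, so the control replicate numbers are uncertain. The processed signals were intensity values background-subtracted, detrended and dye-normalized, per the file headers.

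Log2 values were computed here from the deposited intensity values with limma 3.58.1 (R 4.3.3): normexp background correction (offset 50), loess within arrays and Aquantile between arrays, outlier spots left out. A probe was tested if 3 or more samples in any group were well above background and each group had 3 or more values. Each channel was 1 sample. The model held group and dye, with the array as a random block (correlation 0.5549, statmod 1.5.0). P-values were 2-sided and adjusted by the method of Benjamini and Hochberg over all probes, with a threshold of 0.05. An area of an array counted as departing where, within 10 rows and columns, at least a share of 0.2 of the spots lay over 1 log2 unit from the median of the other arrays. Intervals are at the 95% level.

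The subunits and all gene lists were chosen with earlier results of these data known. All subunit probes are named. Of each list, the 2 genes with the largest change per comparison are named, with both genes of a tie for second place. The 3 genes most correlated with a subunit are named too. Alternatives covered background correction, scaling, filters, 1 probe per gene, the dye and array terms, and leaving out samples, arrays or departing areas. The Grin2a probe sequence is not reported here.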

Additional observations from a re-analysis of the deposited data

How the results depend on the processing

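No paired result is given in the comparisons, since correlations between same-numbered samples of different groups were low (r −0.0695 to 0.0948 over 12 pairs). For 3 of 12 samples the same number correlated best in both other groups. No reference for that count was computed, so it does not decide whether the numbers pair samples. The numbers of control samples 1 and 2 and of 3 and 4 may be exchanged, and over the 36 pairs of unlike number r ran from −0.0676 to 0.116. With the replicate number as a block, 4 probes passed in betamethasone minus control, 0 in ketamine minus saline and 10 in betamethasone with ketamine minus control, against 46, 0 and 17 without it. In the same order the counts were 85, 4 and 157 with processed signals, 86, 1 and 43 with no filter on dim probes, 1032, 1 and 861 with no array block. In both comparisons with control they were 3 and 1 for array means, 0 and 0 under 75th percentile scaling and under loess with array medians, 16 and 7 in the re-centred value table, 70 and 29 with departing areas masked, and 214 and 2 with only the groups compared. For betamethasone minus control they were 28 with plain subtraction and 29 for probes well above background in all 12 samples. Without 1 sample they ranged from 3 to 77, 0 to 0 and 4 to 25.

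Without 1 array the group that loses it rests on 1 array. In the same 3 comparisons the counts were 332, 0 and 263 without the array of control samples 1 and 2, 409, 0 and 465 without that of control samples 3 and 4, 25, 19 and 4 without that of betamethasone samples 1 and 2, 27, 21 and 3 without that of betamethasone samples 3 and 4, 511, 33 and 118 without that of ketamine samples 1 and 2, and 441, 2599 and 3524 without that of ketamine samples 3 and 4.

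The difference of Grin2a and Grin2b in betamethasone minus control was −0.05 with processed signals, 0.17 and 0.17 under 75th percentile scaling and loess with array medians, and 0.02 in the value table. With ketamine minus control these were 0.03, −0.44, −0.44 and −0.02, and in ketamine minus saline it was −0.61 under both of the scalings. Without 1 sample it ranged from −0.34 to −0.25, from 0 to 0.08 and from −0.30 to −0.21 in betamethasone minus control, ketamine minus saline and ketamine minus control.

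Signs of single probes turned as follows, and the cause was not tested. In ketamine minus saline, without the array of ketamine samples 1 and 2, Phgdh was at −0.07 and Lin7a at 0.09, an alternative chosen after seeing the data. In ketamine minus saline, Grin1 A_64_P085896 was at −0.26 and Grin2b at −0.02 with processed signals, and Grin2a, Grin2c and Grin2d were at −0.20, −0.38 and −0.32 under loess with array medians, where the median of all probes was −0.07. Grin1 A_64_P085896 was at −0.15 without the array of ketamine samples 3 and 4, 0 without that of betamethasone samples 3 and 4, and −0.09 to 0.09 without 1 sample. The Grin3a probe A_64_P154353 was at 0.04 without the array of ketamine samples 1 and 2, and A_64_P154352 ranged from −0.27 to 0 without 1 sample. In betamethasone minus control Grin1 A_64_P085896 was at −0.14 and Grin2d at −0.18 without the array of control samples 1 and 2, and Grin2d ranged from −0.04 to 0.20 without 1 sample. In ketamine minus control Grin1 A_43_P11774 was at 0.10 and Grin2b at 0.09 under 75th percentile scaling (median of all probes 0.17), and that Grin1 probe was at 0.09 without the array of control samples 3 and 4, 0.06 without that of ketamine samples 3 and 4, and −0.13 to 0 without 1 sample. Grin1 A_64_P085896 was at −0.12 without the array of control samples 1 and 2. Grin3a A_64_P154352 was at −0.04 under loess with array medians, −0.02 in the value table, −0.07 without the array of ketamine samples 3 and 4, and −0.03 to 0.23 without 1 sample. Grin3a A_64_P154353 was at 0.28 without the array of ketamine samples 1 and 2, and −0.34 to 0.02 without 1 sample.

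Dim probes limit the result for Grin1 A_43_P11774, Grin2b and Grin3b, whose signal lay near the local background in some samples. In Cy3 the local background of every subunit probe, dim or bright, was lower on the control slide than on the other slide. For Grin2a it was 16 and 19 in control samples against 58 to 70.5 in the others, and for Grin2c 15 and 16 against 63 to 72. The part of this in the differences from control was not tested.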
